A study of Homo sapiens with 51 samples.

Results

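The genes described here are 52 interferon-stimulated effector genes, the antiviral and regulatory proteins that a cell makes after it has sensed an interferon. They were taken by symbol from a count table of 25421 gene symbols, and all 52 were in it. The list was drawn up with earlier results of the same libraries in view, and its genes were in effect chosen by their values in KP4, because many of them were higher in the pancreatic ductal adenocarcinoma line KP4 after transduction with OVOL2. The KP4 values of these genes, and their difference between KP4 and the other transduced lines, are therefore given as a description without a test. Their behaviour in PANC1 and PK45H, in the control transductions of these lines and in the untreated lines was tested. The OVOL2 values of PANC1 and PK45H enter the difference from KP4, so the tests of OVOL2 there are not independent of how the list was chosen.

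The series holds 51 libraries in 17 groups of 3, from 5 established human pancreatic ductal adenocarcinoma (PDA) cell lines. HPAFII and PATU8988S were sequenced untreated only. KP4, PANC1 and PK45H were sequenced untreated and after lentiviral transduction with an open reading frame for either mCherry, a red fluorescent protein that serves as the control, or OVOL2, a zinc finger transcription factor known as a repressor of mesenchymal genes. Each reading frame was delivered alone or together with M2rtTA, a transactivator of tetracycline-inducible promoters, at a multiplicity of infection of 2 with 8 µg/ml polybrene. The next day the medium was replaced by one with doxycycline (0.6 µg/ml) and puromycin (2.5 µg/ml), in the groups with and without M2rtTA alike, and RNA was taken after 6 days in all. The labels describe this for transduced cells, and whether untreated wells received the drugs is not given in the sources used here. The transduced wells are selected populations, and the promoter of the reading frames is not given in the sources used here. Each group consists of 3 wells of a 6-well format, so the p-values measure the spread between wells of 1 line.

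Interferons of type I and type III bind receptors at the cell surface that activate the kinases JAK1 and TYK2. The kinases activate the complex ISGF3, of which IRF9 is the DNA-binding part, and ISGF3 binds the interferon-stimulated response element (ISRE) in the promoters of its target genes. Interferon gamma acts mainly on a different element, the gamma-activated site (GAS). The target genes include sensors of double-stranded RNA, enzymes that degrade or mark viral RNA, the ubiquitin-like protein ISG15 with its ligases, and GTPases that block virus particles. In tumour lines, including pancreatic ones, the standing level of these genes is known to vary widely.

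The promoters of 6 members are printed first, because they show where the ISRE letters lie, or are missing, in genes of this list. They are the 4 members that differed most clearly between OVOL2 and mCherry in KP4 with M2rtTA, and 2 of the 3 tested members with the smallest fitted difference. Each is the 250 bases before the RefSeq start on GRCh38.p14, written 5′ to 3′ on the strand of the gene. Capitals mark matches to the ISRE core, which is GAAA, then any 2 bases, then GAAA again, searched on both strands, where overlapping matches run together.
ISG15, chr1:1013247-1013496, plus strand: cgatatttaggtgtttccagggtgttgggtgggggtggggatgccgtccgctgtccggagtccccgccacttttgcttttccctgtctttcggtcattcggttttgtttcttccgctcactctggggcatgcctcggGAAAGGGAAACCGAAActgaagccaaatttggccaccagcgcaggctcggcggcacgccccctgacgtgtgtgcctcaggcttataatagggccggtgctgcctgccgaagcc
MX1, chr21:41420308-41420557, plus strand: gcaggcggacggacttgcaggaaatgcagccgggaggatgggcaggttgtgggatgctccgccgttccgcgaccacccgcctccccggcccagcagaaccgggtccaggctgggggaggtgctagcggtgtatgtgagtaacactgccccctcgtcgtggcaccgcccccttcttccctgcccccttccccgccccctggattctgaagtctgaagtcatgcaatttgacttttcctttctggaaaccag
IFIT1, chr10:89392373-89392622, plus strand: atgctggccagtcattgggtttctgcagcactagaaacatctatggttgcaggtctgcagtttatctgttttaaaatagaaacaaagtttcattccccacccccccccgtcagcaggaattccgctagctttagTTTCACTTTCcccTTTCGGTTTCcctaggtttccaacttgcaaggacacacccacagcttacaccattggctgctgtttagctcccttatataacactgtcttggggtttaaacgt
IFI35, chr17:43006534-43006783, plus strand: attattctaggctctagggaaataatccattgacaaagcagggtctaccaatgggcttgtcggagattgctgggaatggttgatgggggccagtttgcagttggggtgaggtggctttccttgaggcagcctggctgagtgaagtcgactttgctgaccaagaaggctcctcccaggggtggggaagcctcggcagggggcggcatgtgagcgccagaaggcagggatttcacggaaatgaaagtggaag
IFI6, chr1:27672193-27672442, minus strand: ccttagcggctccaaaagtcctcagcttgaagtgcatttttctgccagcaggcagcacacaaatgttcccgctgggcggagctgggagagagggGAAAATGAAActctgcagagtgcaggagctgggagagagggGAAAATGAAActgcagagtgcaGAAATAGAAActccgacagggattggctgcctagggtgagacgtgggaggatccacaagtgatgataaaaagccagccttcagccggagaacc
DDX60L, chr4:168480493-168480742, minus strand: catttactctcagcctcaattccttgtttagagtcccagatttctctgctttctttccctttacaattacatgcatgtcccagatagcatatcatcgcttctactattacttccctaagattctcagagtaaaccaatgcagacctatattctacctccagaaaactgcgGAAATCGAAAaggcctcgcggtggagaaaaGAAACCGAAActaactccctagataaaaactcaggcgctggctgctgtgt

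The first base of the ISRE match lay 113 and 107 bases before the start in ISG15, in 2 overlapping copies, and 116 and 103 bases before it in IFIT1, on the other strand. IFI6 held 3 matches and DDX60L 2, so the 2 genes printed for their small fitted difference in KP4 carried the element too. For IFI6 that small difference rested on 1 high control library, described with the KP4 values. MX1 had its match 12 bases after the start, outside the printed bases, and IFI35 had none in the window. A window of 250 bases before to 50 after the start was found in the RefSeq table for 43 of the 52 members. The ISRE core was present in 28 of them (65.1%), against 3.57% of all 35116 promoters of the same length. The GAS letters TTCNNNGAA were present in 9 of the 43 (20.9%), against 7.66% of all promoters. In KP4 with M2rtTA the ISRE core was held by 14 of the 22 members with a window that passed the threshold upwards, and by 11 of the 16 that were tested and did not pass. A match is a run of letters and not a shown binding site.

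Several members lie next to each other in the genome: the IFIT genes on chromosome 10, OAS1, OAS2 and OAS3 on chromosome 12, MX1 and MX2 on chromosome 21, PARP9, DTX3L and PARP14 on chromosome 3, and the SAMD9 pair on chromosome 7. RSAD2 and CMPK2 are annotated at overlapping positions on chromosome 2, and whether the counting used strand is not given in the sources used here, so reads of this pair may not be separable. USP18 has a near-identical copy elsewhere in the genome, and its counts are uncertain for that reason.

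Counts came from PLATE-seq, a pooled method that reads the 3′ ends of transcripts from barcoded wells. Libraries held 1165399 to 7490556 counts, with a median of 4771717 and the lowest in HPAFII replicate 2. Levels are in CPM, the usual unit of counts relative to the library total, with totals scaled by the trimmed mean of M-values (TMM) over all 51 libraries. OVOL2 itself had 13, 62 and 9 counts in KP4 OVOL2 + M2rtTA against 2, 0 and 6 in mCherry + M2rtTA, and 10, 7 and 4 in KP4 OVOL2 against 12, 7 and 0 in mCherry. A transduced reading frame need not carry the native 3′ end, so these counts do not check the labels. Ductal epithelium markers were present in every line, with 611 to 1052 CPM summed over 6 genes in KP4 and 1754 to 13558 CPM in the others. The 7 leukocyte markers summed to 1.48 to 6.05 CPM in KP4, 1.11 to 7.39 CPM in PANC1 and 1.71 to 10.9 CPM in PK45H, and to 16.5 to 32.8 CPM in HPAFII and 10.7 to 16.0 CPM in PATU8988S, and their part in the results was not tested.

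ISG15, MX1, the IFIT genes and others of the list were higher in KP4 with OVOL2 than with mCherry, and other members were not. Of the 46 members with enough counts to be tested in KP4, 26 were higher past an adjusted p of 0.05 with M2rtTA and none was lower, where 9.91% of all 13662 tested genes were higher past it and 12.5% lower. Without M2rtTA 13 of 46 were higher past it and none lower, where 3.26% of all genes were higher and 3.56% lower. The median log2 fold change of the 46 was 0.85 with M2rtTA and 0.75 without, against 0.01 and 0.00 over all tested genes. All 3 OVOL2 libraries lay above all 3 mCherry libraries for 30 of the 46 with M2rtTA (17.1% of all genes) and for 27 without (12.6% of all genes). This contrast chose the list, so nothing is read from these counts. In bulk RNA, more cells that express a gene and more RNA per cell cannot be told apart. The 6 members not tested in KP4 were BST2, CMPK2, PARP10, SAMD9L, EPSTI1 and RTP4, all with few counts.

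**Figure D1:**
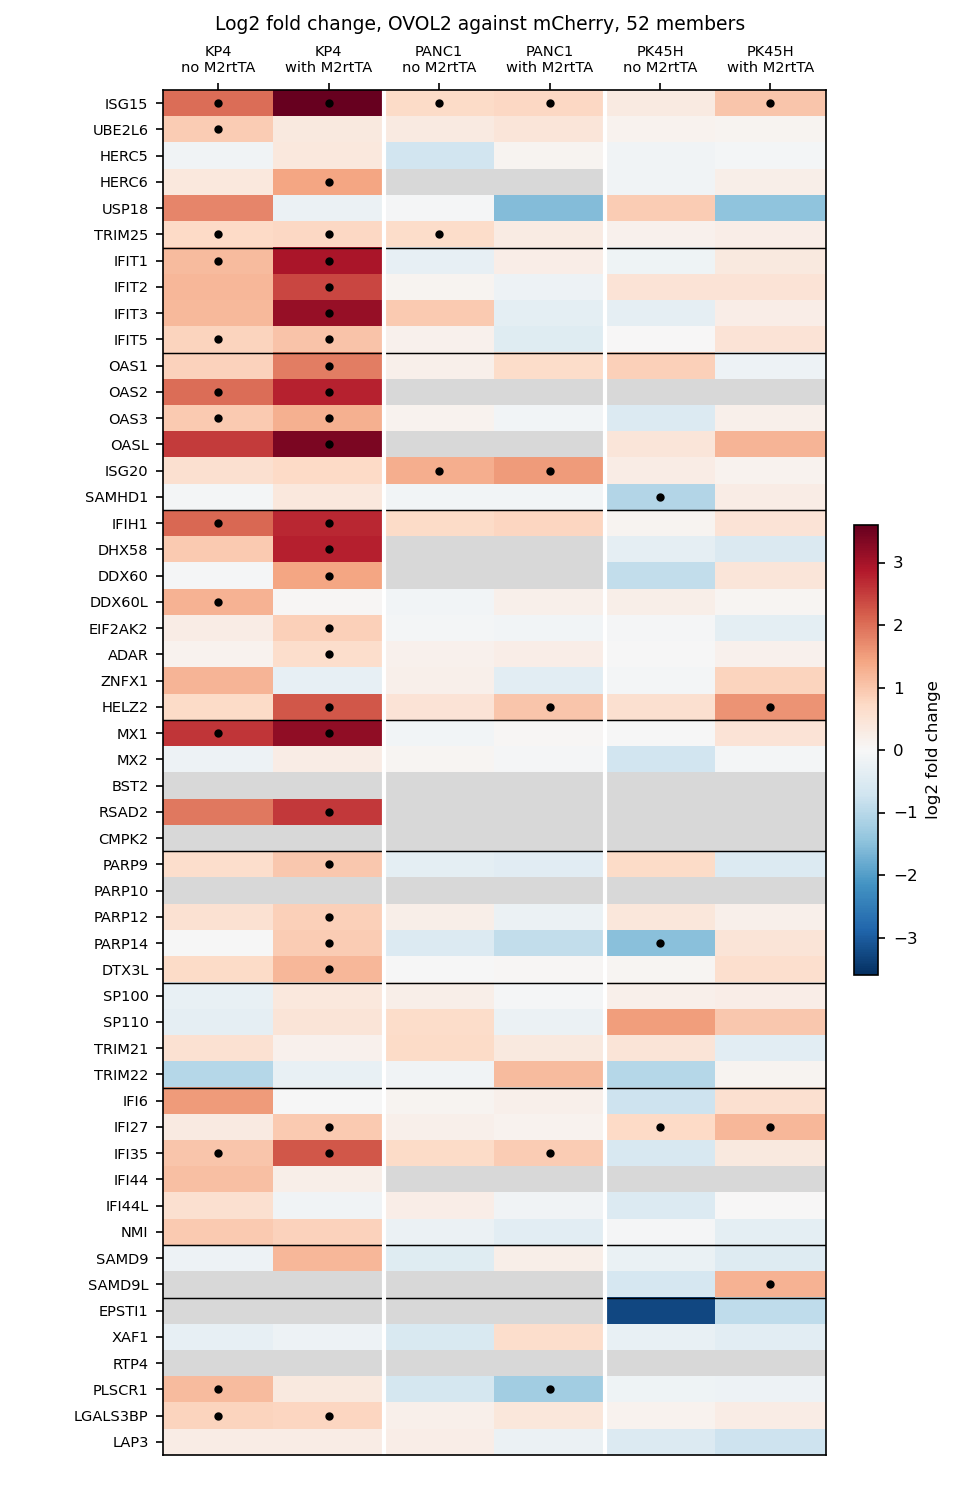
Log2 fold change of OVOL2 against mCherry for each member in KP4, PANC1 and PK45H, without and with M2rtTA, in order of role. The largest values in KP4 with M2rtTA, ISG15 at 3.62, OASL at 3.39 and MX1 at 3.20, stand beside values of 0.76 or below for ISG15 and MX1 in PANC1.

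ISG15, a ubiquitin-like protein that is attached to other proteins and also secreted, stood at 45.7, 43.9 and 43.9 CPM in the 3 KP4 mCherry + M2rtTA libraries and at 527, 564 and 545 CPM in the 3 OVOL2 + M2rtTA libraries. Without M2rtTA it went from 55.5, 57.8 and 45.5 CPM with mCherry to 211, 231 and 204 CPM with OVOL2, and the untreated libraries held 39.0, 39.4 and 38.8 CPM. The groups did not overlap, and the replicates of each lay close together. The log2 fold change was 3.62 (SE 0.13) with M2rtTA and 2.02 (SE 0.12) without. TRIM25, a ubiquitin and ISG15 ligase that activates the sensor RIG-I, moved less, from 63.6, 75.9 and 61.8 CPM to 105, 108 and 123 CPM, a log2 fold change of 0.75 (SE 0.12) with M2rtTA and 0.71 (SE 0.12) without. The other genes of ISG15 conjugation differed among themselves. UBE2L6, the conjugating enzyme, had a log2 fold change of 0.36 (SE 0.20) with M2rtTA and 0.91 (SE 0.20) without, and HERC5, the main ligase, had 0.37 (SE 0.37) and -0.12 (SE 0.36). When mCherry + M2rtTA replicate 3 was left out, HERC5 had 1.09 with M2rtTA and was past the threshold. HERC6, a related ligase, had 1.43 (SE 0.38) and 0.37 (SE 0.37). Of the 6 genes, 3 were higher past the threshold in each arm.

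All 4 IFIT genes, which bind viral RNA that lacks host cap marks and related RNAs, were higher past the threshold in KP4 with M2rtTA, and 2 of the 4 without. IFIT1 stood at 3.75, 3.03 and 3.66 CPM with mCherry + M2rtTA and 25.1, 22.7 and 33.0 CPM with OVOL2 + M2rtTA, a log2 fold change of 2.94 (SE 0.21). Without M2rtTA its libraries held 4.56, 4.06 and 5.03 CPM and 10.3, 10.8 and 9.17 CPM, a log2 fold change of 1.14 (SE 0.20), so the response with M2rtTA was the wider one. The untreated libraries held 1.82, 2.60 and 2.33 CPM. IFIT3 went from 2.65, 2.77 and 1.35 CPM to 17.9, 15.2 and 26.5 CPM with M2rtTA, a log2 fold change of 3.15 (SE 0.41), and IFIT5 from 12.8, 12.4 and 9.63 CPM to 19.8, 29.0 and 21.9 CPM, a log2 fold change of 1.03 (SE 0.19). Every OVOL2 + M2rtTA library of both lay above every mCherry + M2rtTA library. IFIT2 had 2.39 (SE 0.49).

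The OAS proteins make 2′-5′ oligoadenylates from double-stranded RNA, which switch on the RNA-degrading enzyme RNase L. OAS2 stood at 1.10, 1.26 and 1.35 CPM in KP4 mCherry + M2rtTA and at 9.31, 7.84 and 8.57 CPM in OVOL2 + M2rtTA, a log2 fold change of 2.77 (SE 0.40). OAS3 stood at 50.6, 77.9 and 62.0 CPM and 155, 151 and 151 CPM, a log2 fold change of 1.27 (SE 0.19). Neither pair of groups overlapped. OAS1 and OASL had log2 fold changes of 1.84 (SE 0.39) and 3.39 (SE 0.76), and OASL had only 4, 0 and 3 counts in the mCherry + M2rtTA libraries against 33, 29 and 25 with OVOL2. The other 2 of the group did not pass: ISG20, an RNA exonuclease, had 0.71 (SE 0.37), and SAMHD1, which breaks down deoxynucleotides, had 0.38 (SE 0.14). Without M2rtTA OAS2 and OAS3 were past the threshold, at 2.00 and 0.93.

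Among the sensors and helicases 6 of 8 were higher past the threshold in KP4 with M2rtTA and 2 of 8 without. IFIH1, which encodes MDA5, a cytoplasmic sensor of long double-stranded RNA, stood at 1.99, 2.77 and 7.51 CPM with mCherry + M2rtTA and 24.3, 25.8 and 32.2 CPM with OVOL2 + M2rtTA, a log2 fold change of 2.70 (SE 0.38). DHX58, which encodes LGP2, a regulator of MDA5 and RIG-I, stood at 1.33, 1.26 and 1.16 CPM and 8.97, 5.84 and 11.8 CPM, a log2 fold change of 2.81 (SE 0.44). HELZ2, a helicase and nuclear receptor coactivator, stood at 13.5, 6.30 and 9.24 CPM and 36.9, 53.0 and 46.4 CPM, a log2 fold change of 2.23 (SE 0.36). In each of the 3 genes the groups were apart. EIF2AK2, the double-stranded RNA-activated kinase PKR, had 0.85 (SE 0.18), ADAR, which edits double-stranded RNA, had 0.62 (SE 0.13), and DDX60, a helicase, had 1.43 (SE 0.43). DDX60L, its neighbour and paralogue on chromosome 4, stood at 8.61, 7.31 and 6.16 CPM with mCherry + M2rtTA and 5.82, 8.67 and 8.31 CPM with OVOL2 + M2rtTA, a log2 fold change of 0.05 (SE 0.30). Without M2rtTA the same gene went from 3.58, 2.84 and 2.51 CPM to 8.65, 4.92 and 7.91 CPM, a log2 fold change of 1.25 (SE 0.33), and its 3 mCherry libraries were lower there than the 3 of mCherry + M2rtTA.

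MX1, a GTPase that traps viral nucleocapsids, stood at 5.83, 5.03 and 3.39 CPM in untreated KP4, at 4.88, 3.85 and 5.71 CPM with mCherry and at 26.9, 25.9 and 32.9 CPM with OVOL2. With M2rtTA it stood at 5.96, 5.30 and 7.32 CPM with mCherry and 56.2, 56.7 and 59.2 CPM with OVOL2. The gap between the groups was far wider than the spread within either, with log2 fold changes of 2.56 (SE 0.21) without M2rtTA and 3.20 (SE 0.20) with it. MX2, beside it on chromosome 21, had -0.19 (SE 0.26) and 0.26 (SE 0.25). RSAD2, which encodes viperin, an enzyme that makes a chain-terminating nucleotide, had 2.54 (SE 0.81) with M2rtTA from 5, 4 and 1 counts with mCherry and 19, 21 and 27 with OVOL2. Its neighbour CMPK2 had 0, 3 and 0 counts and 11, 8 and 5 counts. BST2, the tetherin that holds budding virus at the membrane, had at most 2 counts in any KP4 library.

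**Figure D2:**
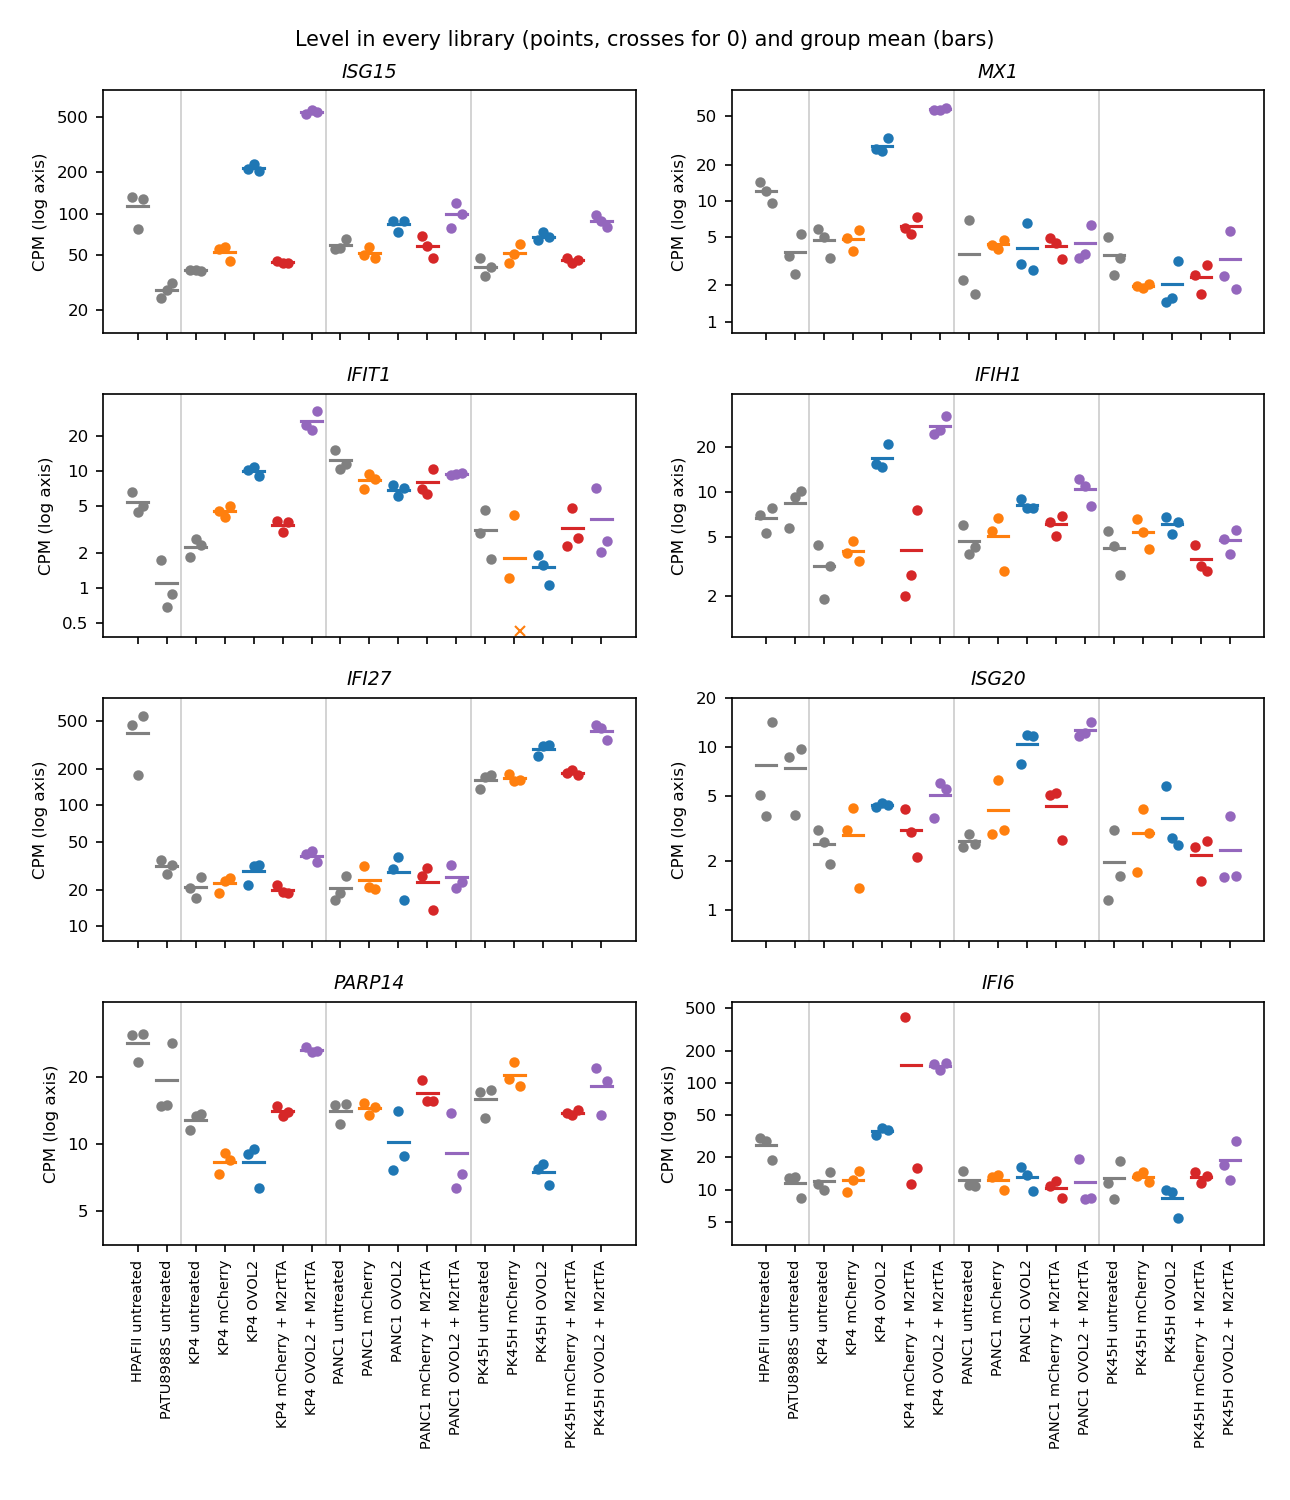
CPM of 8 members in every library of all 17 groups on a logarithmic axis. Points are libraries, crosses mark libraries at 0 and bars are group means. ISG15 and MX1 stand highest in KP4 OVOL2 + M2rtTA, at 527 to 564 and 56.2 to 59.2 CPM, while IFI27 stands higher in PK45H than in KP4 in every group.

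The 4 tested genes of ADP-ribosylation were all higher past the threshold in KP4 with M2rtTA and none without. PARP9 and DTX3L, which form a complex that modifies histones and ubiquitin, had log2 fold changes of 0.98 (SE 0.25) and 1.19 (SE 0.22), PARP12 had 0.86 (SE 0.19) and PARP14 had 0.91 (SE 0.17). None of the 4 nuclear body and TRIM genes passed in either arm, with log2 fold changes with M2rtTA of 0.38 for SP100, 0.46 for SP110, 0.14 for the antibody receptor TRIM21 and -0.25 for TRIM22. Among the IFI and NMI genes, IFI35 and IFI27 were past the threshold. IFI35, a partner of NMI, stood at 4.86, 7.06 and 8.28 CPM with mCherry + M2rtTA and 25.8, 30.8 and 38.3 CPM with OVOL2 + M2rtTA, a log2 fold change of 2.22 (SE 0.24). The mitochondrial protein gene IFI27 had 0.95 (SE 0.20) and NMI had 0.83 (SE 0.30). IFI44L stood at 5.74, 7.06 and 9.24 CPM and 7.98, 7.34 and 4.79 CPM, a log2 fold change of -0.12 (SE 0.28), and its neighbour IFI44 had 0.22 (SE 0.56). Without M2rtTA these 2 neighbours on chromosome 1 had 0.59 (SE 0.27) and 1.09 (SE 0.50), and neither passed in either arm. SAMD9, a translation inhibitor, had 1.19 (SE 0.53). Of the remaining genes LGALS3BP, a secreted glycoprotein, had 0.78 (SE 0.22) with M2rtTA and 0.80 (SE 0.22) without, PLSCR1, a phospholipid scramblase, had 0.36 (SE 0.30) and 1.13 (SE 0.30), and XAF1 and LAP3 had -0.19 (SE 0.23) and 0.25 (SE 0.29) with M2rtTA.

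In KP4 the change of the OVOL2 difference with M2rtTA passed the threshold for 2 members, ISG15 at 1.60 (SE 0.16) and IFIT1 at 1.79 (SE 0.29) on the log2 scale, against 0.417% of all tested genes in that direction. Pearson's r between the arms was 0.598 over the 46 members, a description over genes of 1 line. Of the 26 members past the threshold with M2rtTA, 21 stayed past it when each of the 6 libraries was left out in turn, and the others were HERC6 and PARP9 (each lost in 1 of 6 omissions), LGALS3BP (2), DDX60 (4) and RSAD2 (5). Without M2rtTA 6 of 13 did, namely ISG15, TRIM25, IFIT1, OAS3, IFIH1 and MX1, and the count was 7 without OVOL2 replicate 1, mCherry replicate 1 or mCherry replicate 2, 8 without OVOL2 replicate 2 or mCherry replicate 3, and 10 without OVOL2 replicate 3.

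For 4 members 1 KP4 mCherry + M2rtTA library stood far above its mates. IFI6, a membrane protein that blocks flavivirus replication, stood at 408, 11.3 and 15.8 CPM in the 3 mCherry + M2rtTA libraries, or 1847, 45 and 82 counts, and at 149, 130.2 and 152 CPM with OVOL2 + M2rtTA. Replicate 1 was thus above all OVOL2 libraries while its 2 mates were far below them, and the fitted log2 fold change was -0.0028 (SE 0.86). Without that library it was 3.42 and past the threshold. SP110, a nuclear body protein, stood at 121, 17.4 and 15.8 CPM with replicate 1 again the high one, and without it its log2 fold change was 2.10 and past the threshold. Replicate 3 was the high one for USP18, which removes ISG15 and damps interferon signalling, at 1.99, 1.51 and 26.4 CPM, and for ZNFX1, a double-stranded RNA sensor at mitochondria, at 43.1, 18.4 and 244 CPM. Without replicate 3 USP18 had a log2 fold change of 2.32 and was past the threshold. HERC5 passed without replicate 3 as well, as given above. Single high libraries were also seen outside KP4. EPSTI1 stood at 16.8 CPM in PK45H mCherry replicate 2, with the next library of the group at 0.978 CPM. ZNFX1 stood at 314 CPM in untreated PK45H replicate 1, with the next at 57.0 CPM. The cause of these single high libraries was not tested.

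**Figure D3:**
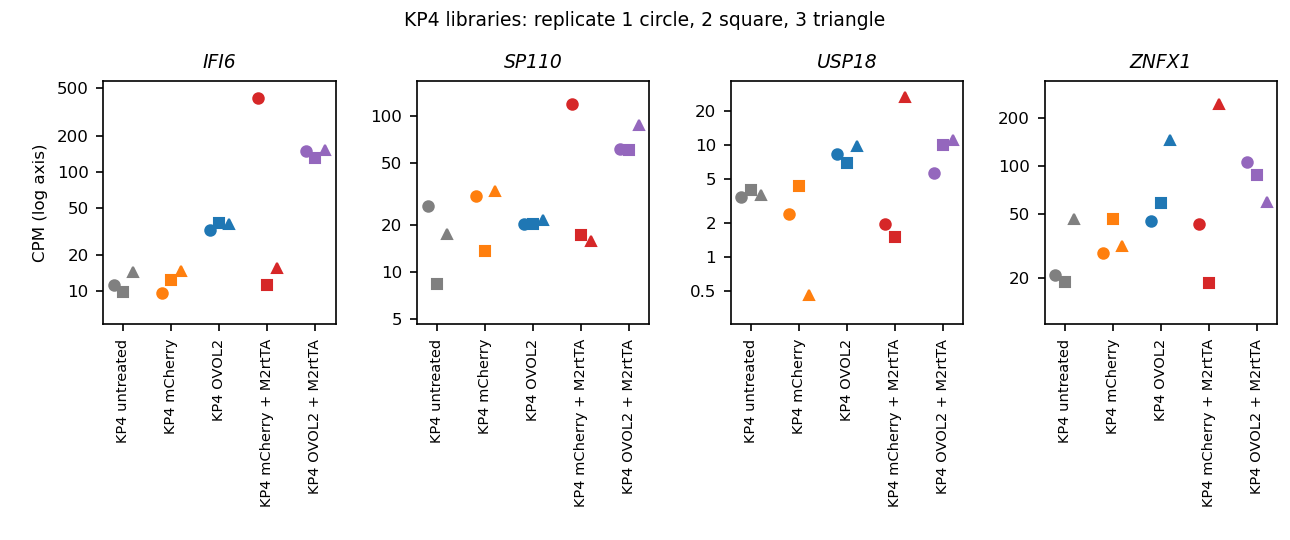
CPM of IFI6, SP110, USP18 and ZNFX1 in each KP4 library. In mCherry + M2rtTA a single library stands above its mates in each gene, replicate 1 at 408 CPM for IFI6 and 121 CPM for SP110, and replicate 3 at 26.4 CPM for USP18 and 244 CPM for ZNFX1.

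In PANC1 ISG15, ISG20, HELZ2, IFI35 and TRIM25 rose and PLSCR1 fell in at least 1 arm. Of the 39 members tested, 4 were higher and 1 was lower with M2rtTA, where 5.76% and 8.18% of the 13218 tested genes were higher and lower, and 3 were higher and none lower without it, where the shares were 2.12% and 2.96%. With M2rtTA the members' share is near that of all genes, so the count itself is no result about them. The median log2 fold change of the members was 0.05 with M2rtTA and 0.14 without, against 0.02 and -0.02 over all genes. The median with M2rtTA was -0.08 without mCherry + M2rtTA replicate 3, -0.07 without OVOL2 + M2rtTA replicate 1 and 0.19 without mCherry + M2rtTA replicate 1, so its sign is not settled. ISG15 stood at 69.3, 59.0 and 47.9 CPM with mCherry + M2rtTA and at 78.9, 119.8 and 100.2 CPM with OVOL2 + M2rtTA, a log2 fold change of 0.76 (SE 0.17, edgeR adjusted p = 0.00821). Without M2rtTA it stood at 49.99, 57.2 and 48.3 CPM and 89.4, 74.1 and 88.9 CPM, with 0.69 (SE 0.17, edgeR adjusted p = 0.0301). The groups did not overlap in either arm. ISG20 stood at 5.11, 5.26 and 2.69 CPM and 11.8, 12.2 and 14.4 CPM with M2rtTA, a log2 fold change of 1.54 (SE 0.31, edgeR adjusted p = 0.0046). Without M2rtTA it went from 2.94, 6.27 and 3.11 CPM to 7.86, 11.96 and 11.7 CPM, with 1.31 (SE 0.31, edgeR adjusted p = 0.0274). In both arms ISG20 was the member with the largest rise among those that passed in PANC1, and in KP4 it did not pass in either arm. The difference in its response between PANC1 and PK45H, 1.45 (SE 0.58) with M2rtTA, did not pass (edgeR adjusted p = 0.164).

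HELZ2 rose in PANC1 with M2rtTA from 7.11, 7.98 and 5.58 CPM to 11.8, 13.8 and 16.3 CPM, a log2 fold change of 1.01 (SE 0.19, edgeR adjusted p = 0.00325), and without M2rtTA it had 0.49 (SE 0.19). IFI35 rose with M2rtTA by 0.91 (SE 0.22, edgeR adjusted p = 0.0128), and the call was lost without mCherry + M2rtTA replicate 2 (adjusted p = 0.0619). TRIM25 rose without M2rtTA, from 91.2, 99.3 and 103 CPM to 138, 158 and 176 CPM, with 0.67 (SE 0.14, edgeR adjusted p = 0.0145), and with M2rtTA it had 0.29 (SE 0.14). The fall was in PLSCR1, from 3.9996, 6.04 and 7.03 CPM to 1.92, 2.72 and 2.44 CPM with M2rtTA, a log2 fold change of -1.25 (SE 0.30, edgeR adjusted p = 0.0132), which was lost without mCherry + M2rtTA replicate 3 (adjusted p = 0.0615). In KP4 PLSCR1 did not pass with M2rtTA, at 0.36. It was higher there without M2rtTA, a call lost without mCherry replicate 1, 2 or 3 or OVOL2 replicate 1 or 2. The rises in PANC1 without M2rtTA were the less stable ones. None of the 3 stayed past the threshold under every omission of 1 of the 6 libraries: ISG15 stayed only without OVOL2 replicate 2 (adjusted p otherwise 0.0541 to 0.112), ISG20 only without mCherry replicate 2 or OVOL2 replicate 1 (otherwise 0.0823 to 0.106), and TRIM25 was lost without mCherry replicate 1 or OVOL2 replicate 3 (0.0603 and 0.0654). None of the 3 passed in a fit of the 2 groups alone.

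In PK45H 45 members were tested, and 4 were higher and none lower with M2rtTA, where 7.45% and 8.4% of the 13583 tested genes were higher and lower. Without M2rtTA 1 was higher and 2 were lower, where the shares were 3.58% and 4.81%. These counts too are near the shares of all genes. The median log2 fold change of the members was 0.22 with M2rtTA and -0.04 without, against 0.01 and 0.00 over all genes. The median without M2rtTA was 0.06 without mCherry replicate 3 and 0.0078 with no filter on low counts, so its sign is not settled. IFI27 stood at 186, 194 and 179 CPM with mCherry + M2rtTA and 458, 434 and 344 CPM with OVOL2 + M2rtTA, a log2 fold change of 1.20 (SE 0.14, edgeR adjusted p = 8.18e-05). Without M2rtTA it stood at 182, 160.0 and 162 CPM and 254, 307 and 313 CPM, with 0.72 (SE 0.14, edgeR adjusted p = 0.00576). It was the member called in both arms of PK45H, and the groups were apart in each. ISG15 rose with M2rtTA from 48.3, 44.4 and 46.1 CPM to 98.2, 88.4 and 80.7 CPM, a log2 fold change of 1.00 (SE 0.15, edgeR adjusted p = 0.000474), and had 0.33 (SE 0.15) without. SAMD9L, a paralogue of SAMD9 that also restrains translation, rose with M2rtTA from 6.99, 2.81 and 7.66 CPM to 13.6, 13.7 and 12.7 CPM, a log2 fold change of 1.24 (SE 0.30, edgeR adjusted p = 0.0127). It was too low to be tested in KP4 and PANC1. HELZ2 rose by 1.63 (SE 0.44, edgeR adjusted p = 0.0216) and was lost without mCherry + M2rtTA replicate 1 or replicate 3 or OVOL2 + M2rtTA replicate 2, with adjusted p from 0.0824 to 0.102.

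PARP14, an ADP-ribosyltransferase, differed between the arms of PK45H. Without M2rtTA it fell from 19.6, 23.2 and 18.1 CPM with mCherry to 7.69, 8.12 and 6.52 CPM with OVOL2, a log2 fold change of -1.51 (SE 0.21, edgeR adjusted p = 0.000408). With M2rtTA it stood at 13.7, 13.5 and 14.1 CPM and 21.8, 13.5 and 19.2 CPM, a log2 fold change of 0.46 (SE 0.19) that did not pass. The test of the change itself gave 1.97 (SE 0.28, edgeR adjusted p = 0.00414), and PARP14 was the 1 member to pass there, where 1.6% of all genes passed. SAMHD1 fell without M2rtTA from 24.9, 38.5 and 24.5 CPM to 14.4, 12.8 and 17.2 CPM, with -1.05 (SE 0.25, edgeR adjusted p = 0.0166), and was lost without mCherry replicate 2, OVOL2 replicate 1 or OVOL2 replicate 2 (adjusted p 0.053 to 0.071). With M2rtTA SAMHD1 had 0.27 (SE 0.24).

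ISG15 and HELZ2 were thus higher past the threshold in both PANC1 and PK45H, ISG20, TRIM25 and IFI35 in PANC1, and IFI27 and SAMD9L in PK45H. Several members that led in KP4 had smaller values in the other lines. MX1 had log2 fold changes with M2rtTA of 0.05 (SE 0.48) in PANC1 and 0.50 (SE 0.46) in PK45H, IFIT1 had 0.25 (SE 0.22) and 0.35 (SE 0.70), and IFIT3 had -0.36 (SE 0.55) and 0.24 (SE 0.28). IFIH1 had 0.78 (SE 0.28) and 0.49 (SE 0.31), and OAS1 had 0.66 (SE 0.38) and -0.18 (SE 0.30). None of these 5 passed in either line. The members that were too low to be tested numbered 13 in PANC1 and 7 in PK45H, and 39 were tested in all 3 lines.

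**Figure D4:**
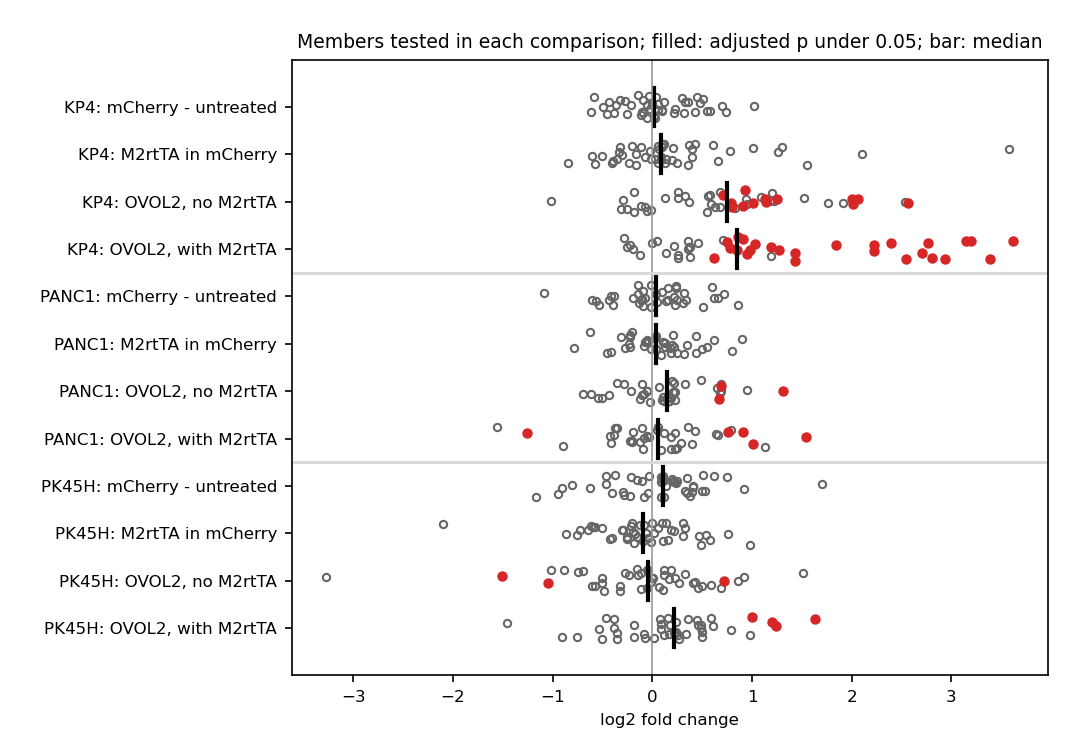
Log2 difference of every tested member in 12 comparisons of the transduced lines, with filled points for an adjusted p under 0.05 and a bar at the median. The medians for KP4 OVOL2 against mCherry, 0.75 and 0.85, stand above those of PANC1 and PK45H, which lie between -0.04 and 0.22, and no control comparison has a filled point.

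The difference between lines was fitted in 1 model over the 45 libraries of KP4, PANC1 and PK45H, in which 48 members were tested. The OVOL2 difference in KP4 minus the mean of those in PANC1 and PK45H was higher past the threshold for 16 members with M2rtTA, where 1.44% of 14943 genes were, and for 5 without, where 0.542% were. No member was lower past it in either arm, and the medians of the members were 0.94 and 0.64. This difference chose the list, and the values are a description. Wide gaps among these 16 were those of IFIT3 at 3.19 (SE 0.55), DHX58 at 3.20 (SE 0.82), MX1 at 2.92 (SE 0.44), OAS2 at 2.88 (SE 0.59) and ISG15 at 2.73 (SE 0.18), all with M2rtTA. OAS2 was too low to be tested within PANC1 or PK45H, and DHX58 within PANC1, so the sizes of their gaps rest on few counts there. DHX58 was lost without KP4 mCherry + M2rtTA replicate 1, 2 or 3 or KP4 OVOL2 + M2rtTA replicate 3. Without M2rtTA the 5 were MX1 at 2.59 (SE 0.47), IFIH1 at 1.64 (SE 0.40), ISG15 at 1.48 (SE 0.17), PLSCR1 at 1.48 (SE 0.36) and OAS3 at 1.09 (SE 0.21). That count was 3 without KP4 mCherry replicate 1, 2 or 3 or PANC1 mCherry replicate 2. PANC1 and PK45H differed from each other in fewer members. Without M2rtTA the 1 that passed was IFI35, at 1.24 (SE 0.30, edgeR adjusted p = 0.0205) (PANC1 minus PK45H), where 1.88% of genes passed, and it was lost without PANC1 OVOL2 replicate 2, PANC1 mCherry replicate 3, PK45H mCherry replicate 2 or PK45H OVOL2 replicate 3. With M2rtTA the 2 that passed were PARP14 at -1.34 (SE 0.31, edgeR adjusted p = 0.0082) and IFIT5 at -0.90 (SE 0.25, edgeR adjusted p = 0.029), where 4.08% passed, and IFIT5 was lost without PANC1 mCherry + M2rtTA replicate 1, PANC1 OVOL2 + M2rtTA replicate 3, PK45H mCherry + M2rtTA replicate 1 or 2 or PK45H OVOL2 + M2rtTA replicate 3 (adjusted p 0.0541 to 0.117).

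No effector gene passed the threshold for the control transduction or for M2rtTA without OVOL2. In KP4 these comparisons share mCherry libraries with the contrasts that chose the list, so their KP4 values are a description. In mCherry against untreated 0 members passed in KP4, PANC1 and PK45H by edgeR, with 3 in each line at an unadjusted p under 0.05 (7.07%, 10.3% and 7.98% of all genes), and 0, 0.598% and 0.00736% of all genes passed. In mCherry + M2rtTA against mCherry 0 members passed in each line, with 8 of 46, 2 of 39 and 4 of 45 at an unadjusted p under 0.05 (6.73%, 6.14% and 9.42% of all genes), and 0, 0 and 0.0294% of all genes passed. DESeq2 also gave 0 in each of these 6 comparisons. In PANC1 M2rtTA changed the OVOL2 difference past the threshold for 0 members by edgeR and by DESeq2, with 2 at an unadjusted p under 0.05 (10.6% of all genes), where 0.136% of all genes passed. The median of the members in KP4 was 0.02 for mCherry against untreated and 0.09 for M2rtTA with mCherry, and the latter was -0.02 without mCherry + M2rtTA replicate 3. The member with the largest fitted value was IFI6 in KP4, at 3.58 (SE 0.98) for M2rtTA with mCherry, and it rested on the high replicate 1. IFIT1 had 1.02 (SE 0.24) for mCherry against untreated KP4, with 1.82, 2.60 and 2.33 CPM untreated and 4.56, 4.06 and 5.03 CPM with mCherry, and did not pass (edgeR adjusted p = 0.499).

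The standing level of the effector genes differed between the 5 untreated lines. In the fit of the 15 untreated libraries 47 members were tested. The mean of HPAFII and PATU8988S was above the mean of KP4, PANC1 and PK45H for 19 of them and below it for 1, where 17.4% of the 13785 tested genes went each way, and the median of the members was 0.48. OAS1 stood at 34.5, 15.8 and 24.2 CPM in HPAFII and 20.4, 13.1 and 22.5 CPM in PATU8988S, against 4.01, 2.95 and 5.30 CPM in KP4, 4.01, 3.84 and 3.69 CPM in PANC1 and 9.78, 6.42 and 7.75 CPM in PK45H. The log2 difference was 2.15 (SE 0.19, edgeR adjusted p = 8.17e-07), and no library of the first 2 lines overlapped the other 3 lines. BST2, also among the 19, had 29, 6 and 25 counts in HPAFII and 15, 16 and 21 in PATU8988S, against 2, 0 and 0 in KP4, 1, 4 and 0 in PANC1 and 2, 0 and 0 in PK45H. It had enough counts to be tested only through HPAFII and PATU8988S, where it is high. Its call as higher was thus largely set by the filter on low counts. For that reason, and with so few counts in KP4, PANC1 and PK45H, no size or p-value is given for the BST2 difference. IFIT1 was the 1 member below, at -0.80 (SE 0.28, edgeR adjusted p = 0.0376), and that call was lost in 9 of 15 omissions of a library (adjusted p 0.0509 to 0.113).

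**Figure D5:**
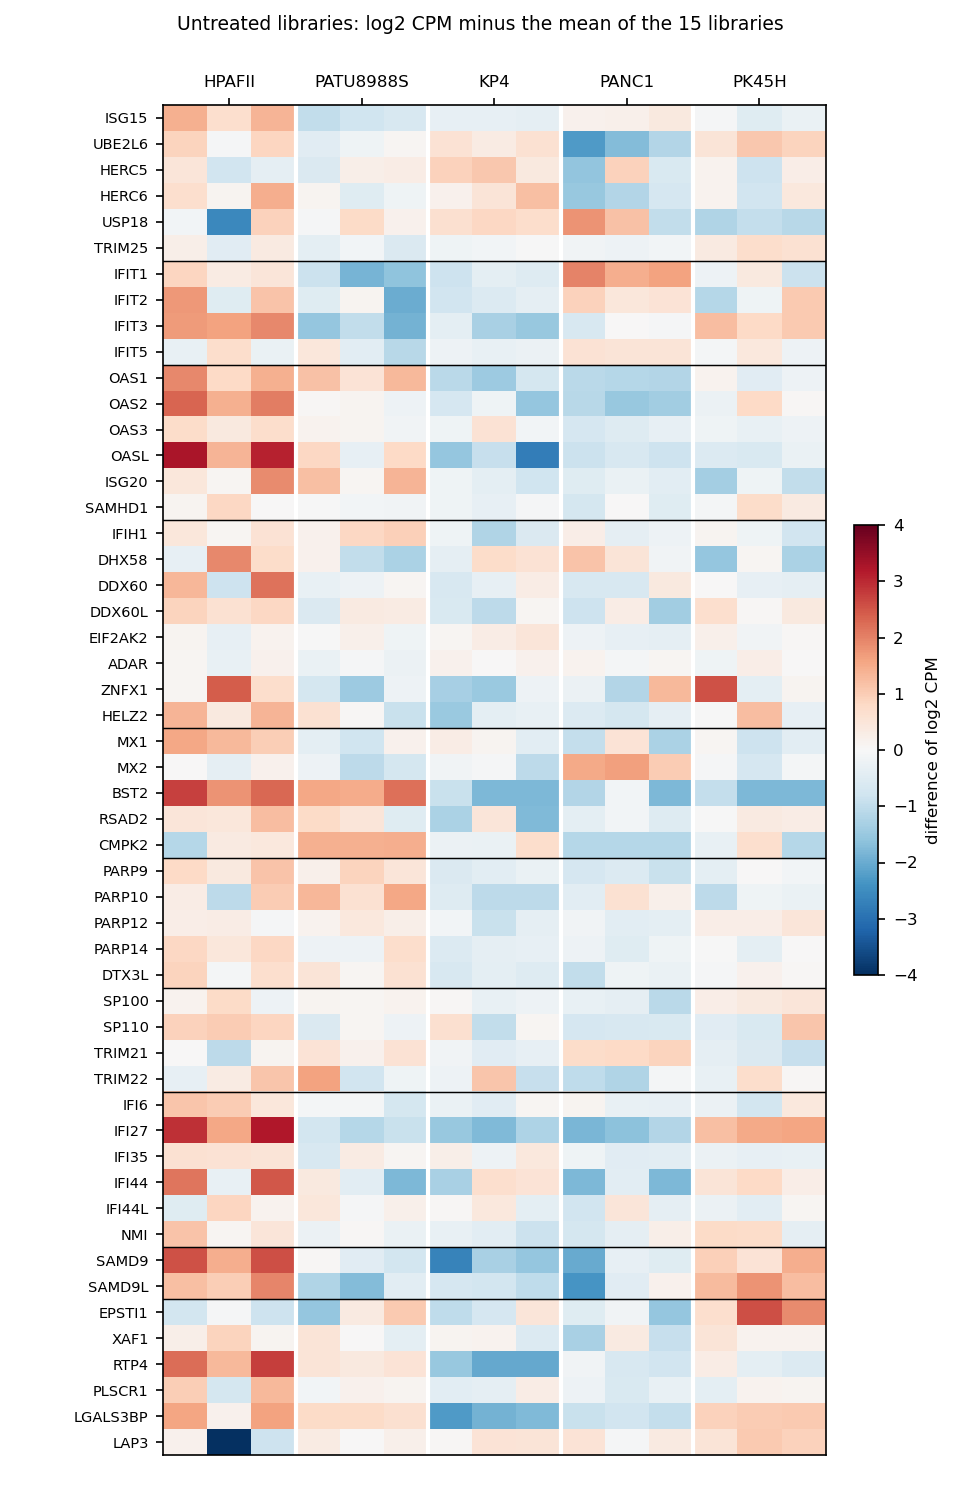
Log2 CPM of each member in the untreated libraries of the 5 lines, as the difference from the mean of all 15 libraries. HPAFII is above PATU8988S for the 14 members that passed between them, among them ISG15 and IFI27.

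Between HPAFII and PATU8988S the members that passed were lower in PATU8988S. Of the 47 tested, 14 were lower than in HPAFII and none higher, where 9.14% of genes were lower, and the median was -0.67. IFI27 stood at 461, 177 and 552 CPM in HPAFII and 35.6, 27.1 and 31.9 CPM in PATU8988S, with -3.69 (SE 0.34, edgeR adjusted p = 5.96e-06). ISG15 stood at 133, 78.2 and 128 CPM and 24.7, 28.3 and 31.6 CPM, with -2.05 (SE 0.20, edgeR adjusted p = 8.82e-06). IFIT3 stood at 15.5, 14.3 and 18.1 CPM and 1.25, 2.03 and 0.886 CPM, with -3.52 (SE 0.39, edgeR adjusted p = 2.71e-05). HPAFII replicate 2, the shallowest library of all, was the lowest of its group for each, and in these 3 genes every HPAFII library was still above every PATU8988S library. The count was 10 without HPAFII replicate 1 and 18 without HPAFII replicate 2. The leukocyte marker sums given above rested mainly on LYZ, at 22.5, 12.03 and 29.0 CPM in HPAFII and 9.46, 13.3 and 15.1 CPM in PATU8988S, which did not pass (edgeR adjusted p = 0.356), and the other 6 markers were too low to be tested. Their part in this difference was not tested.

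In untreated KP4 LGALS3BP, IFI27 and IFIT3 were among the members below the mean of PANC1 and PK45H. Of 47 members 2 were higher and 7 lower, where 22.4% of genes passed in either direction, 1503 higher and 1578 lower, so the number that passed is near the share of all genes. DESeq2 gave 4 higher and 7 lower. The median of the members was -0.25. LGALS3BP was the clearest, at 11.8, 15.4 and 16.96 CPM in KP4, 30.9, 34.1 and 29.8 CPM in PANC1 and 111, 118 and 120.3 CPM in PK45H, with -2.07 (SE 0.26, edgeR adjusted p = 5.15e-05). In HPAFII and PATU8988S it stood at 173, 65.4 and 179 CPM and 98.1, 98.8 and 91.6 CPM, so KP4 was the lowest of the 5 lines. IFIT3 was lower too, at 3.28, 1.56 and 1.27 CPM in KP4, 2.67, 4.52 and 4.26 CPM in PANC1 and 10.9, 7.98 and 9.50 CPM in PK45H, with -1.56 (SE 0.33, edgeR adjusted p = 0.00309). IFI27 had -1.48 (SE 0.29, edgeR adjusted p = 0.00209). For IFI27 the KP4 and PANC1 libraries overlapped, with the values given below, and KP4 was below PK45H only. The 2 higher genes were UBE2L6 and HERC6. UBE2L6 stood at 10.6, 8.85 and 10.8 CPM in KP4, with 1.00 (SE 0.26, edgeR adjusted p = 0.0119) against the mean of the 2 lines, which were themselves far apart, and KP4 was above PANC1 only. HERC6 stood at 2.37, 3.12 and 5.30 CPM in KP4, 0.445, 0.677 and 1.14 CPM in PANC1 and 2.32, 1.04 and 2.92 CPM in PK45H, with 1.47 (SE 0.43, edgeR adjusted p = 0.0247). HERC6 was lost without KP4 replicate 2 or 3 or PANC1 replicate 1 or 2 (adjusted p 0.0504 to 0.157).

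Between PANC1 and PK45H 5 of the 47 were higher in PANC1 and 11 lower, where 25.6% of genes passed in either direction, 1715 higher and 1815 lower, and the median was -0.37. IFI27 stood at 16.7, 19.0 and 26.1 CPM in PANC1 and 138, 172 and 178 CPM in PK45H, with -2.93 (SE 0.33, edgeR adjusted p = 1.87e-05), and at 20.8, 17.2 and 25.4 CPM in KP4. UBE2L6 stood at 1.11, 1.81 and 2.84 CPM in PANC1 and 10.1, 15.3 and 13.2 CPM in PK45H, with -2.71 (SE 0.34, edgeR adjusted p = 4.25e-05). The opposite order was seen for MX2, a GTPase that acts on nuclear entry of retroviruses, at 25.8, 28.2 and 18.5 CPM and 8.62, 5.38 and 8.33 CPM, with 1.75 (SE 0.30, edgeR adjusted p = 0.000598). IFIT1 was likewise higher in PANC1, at 15.1, 10.4 and 11.7 CPM against 2.98, 4.69 and 1.75 CPM, with 2.04 (SE 0.35, edgeR adjusted p = 0.000648), and TRIM21 at 16.7, 17.2 and 18.5 CPM against 7.46, 6.42 and 4.97 CPM, with 1.52 (SE 0.25, edgeR adjusted p = 0.000394). LGALS3BP was lower in PANC1, with -1.82 (SE 0.27, edgeR adjusted p = 0.000205). The count of members that passed was 10 without PANC1 replicate 1 or replicate 3.

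Levels can also be set across lines and conditions. ISG15 in untreated HPAFII, the highest untreated line for this gene, reached 133 CPM, and each KP4 library with OVOL2 was above that with or without M2rtTA. For IFI27 the order was different: the highest KP4 group, OVOL2 + M2rtTA, held 39.6, 41.8 and 34.3 CPM, below every untreated PK45H library. In PANC1 and PK45H with OVOL2 + M2rtTA ISG15 reached at most 119.8 and 98.2 CPM.

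Of 53 genes of interferon production and signalling, 29 were tested in each line. In KP4 with M2rtTA 7 were higher and 3 lower past the threshold, where 9.91% and 12.5% of all genes were. Without M2rtTA 6 were higher and 1 lower, where 3.26% and 3.56% were. The numbers lower are near the shares of all genes, so nothing is read from them. These values are a description as well, since they come from the same contrast as the choice of the effector genes. IRF9, the DNA-binding subunit of ISGF3, stood at 5.30, 8.32 and 7.51 CPM with mCherry + M2rtTA and 76.0, 71.2 and 73.6 CPM with OVOL2 + M2rtTA, a log2 fold change of 3.39 (SE 0.17), and 2.20 (SE 0.17) without M2rtTA. The kinase TYK2 had 0.66 (SE 0.19) with M2rtTA. IRF7, a factor that amplifies interferon production, had 2.03 (SE 0.30) and 1.75 (SE 0.31) without M2rtTA, and IRF1 had 0.92 (SE 0.17) and 0.64 (SE 0.16). DDX58, which encodes RIG-I, had 2.89 (SE 0.29) and 1.87 (SE 0.29). Of the receptor chains, IFNGR2 of the interferon gamma receptor had 1.00 (SE 0.18) and 1.11 (SE 0.18), while IFNAR2 of the type I receptor had -1.59 (SE 0.18) and -0.69 (SE 0.17). IL10RB, the shared chain of the type III receptor, had 0.64 (SE 0.16) without M2rtTA. The inhibitors SOCS3 and PTPN2 had -0.73 (SE 0.20) and -0.54 (SE 0.15) with M2rtTA.

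In PANC1 DDX58 rose in both arms, by 1.10 (SE 0.26, edgeR adjusted p = 0.0118) with M2rtTA and 1.16 (SE 0.26, edgeR adjusted p = 0.0189) without, and the latter call was lost without mCherry replicate 1 or 3 or OVOL2 replicate 1 or 2 (adjusted p 0.0536 to 0.0772). IFNAR2 fell with M2rtTA, from 17.1, 18.9 and 13.6 CPM to 4.56, 3.32 and 7.32 CPM, with -1.74 (SE 0.35, edgeR adjusted p = 0.00428). IFNL1, a type III interferon with near-identical paralogues, had 3, 2 and 0 counts with mCherry + M2rtTA and 19, 26 and 10 with OVOL2 + M2rtTA. It had enough counts to be tested only through libraries with OVOL2. Its call as higher was thus largely set by the filter on low counts, and no size or p-value is given for it. That call was lost without mCherry + M2rtTA replicate 2 or replicate 3 and was not made by DESeq2. In PK45H IRF9 rose in both arms, by 1.17 (SE 0.20, edgeR adjusted p = 0.00126) with M2rtTA and 1.16 (SE 0.22, edgeR adjusted p = 0.00418) without. IRF7 rose without M2rtTA, by 1.39 (SE 0.28, edgeR adjusted p = 0.00759), and IFNAR2 fell, with -2.02 (SE 0.29, edgeR adjusted p = 0.000587). STING1, the adaptor of cytoplasmic DNA sensing, went opposite ways, with -1.35 (SE 0.28, edgeR adjusted p = 0.00771) without M2rtTA and 1.16 (SE 0.24, edgeR adjusted p = 0.00507) with it. With M2rtTA STAT2 rose by 0.84 (SE 0.23, edgeR adjusted p = 0.0242) and IRF3 by 0.74 (SE 0.19, edgeR adjusted p = 0.0194), while TICAM1 and TRAF3, adaptors of innate sensing, fell, with -1.44 (SE 0.44, edgeR adjusted p = 0.0399) and -0.72 (SE 0.22, edgeR adjusted p = 0.0363). These last 4 calls were each lost in 3 to 5 of 6 omissions of a library.

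The interferon ligands themselves had few counts. Of 21 listed, the type I genes of the alpha family and beta together had 0 to 5 counts in any group of 3 libraries, in KP4 as in the others. The type III genes had 35 counts in KP4 OVOL2 + M2rtTA and 8 in mCherry + M2rtTA, and 20 in OVOL2 and 7 in mCherry. In PANC1 they had 74 in OVOL2 + M2rtTA and 6 in mCherry + M2rtTA, and 29 in OVOL2 and 10 in mCherry. In PK45H they had 5 and 7 with M2rtTA, and 5 and 6 without. At this depth a ligand present in few copies is not detectable, and its absence is not shown.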

How the data were processed

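Counts per gene symbol were analysed as the authors deposited them, whole-number counts for 51 PLATE-seq libraries. The submitters' processing notes name kallisto 0.44.0 and GRCh38 without giving their roles. The members, the pathway list and the lists of markers were chosen with earlier results of these data known. Groups were taken from the labels. Tests used edgeR 4.0.16 (quasi-likelihood F test, filterByExpr, TMM) in R 4.3.3, with 1 fit of 15 libraries for each transduced line, 1 of 45 for differences between lines and 1 of 15 untreated libraries. P-values were adjusted by Benjamini-Hochberg over all genes of a fit, with a threshold of 0.05. The standard error is the absolute log2 fold change divided by the square root of F. Levels on a log2 scale used a prior count of 2. The scripts were tested on simulated data of the comparison with M2rtTA. In each line 100 genes were changed by each size, drawn from genes without low counts. These are far fewer than the genes that passed in the real comparison, so the shares need not hold for the members. True log2 changes of 1 passed for 29% of the changed genes in each line, and changes of 2 for 91% to 93%. False calls made up 2.44% of the calls in KP4, 3.17% in PANC1 and 6.98% in PK45H. A member that did not pass is therefore not shown to be unchanged. The genes given with the value of every library were the 12 members with the smallest p in KP4 with M2rtTA, the 3 with the smallest absolute fold change there, and the 3 called in each direction with the smallest p in each arm of PANC1 and PK45H and in each untreated comparison. The other members are given by fold change or count, and values of a further few libraries were added after the data were seen. A gene of the pathway list is counted but not reported by name here. Promoter windows came from RefSeq. Alternatives were DESeq2 1.42.0, DESeq2 size factors, no filter on low counts, only the groups compared, a replicate block and the omission of each library.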

Additional observations from a re-analysis of the deposited data

Results flagged for a closer look

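Differences of the OVOL2 effect between arms or lines passed the threshold for some members. Those between PANC1 and PK45H and between the arms of PK45H were tested in edgeR. Between PANC1 and PK45H the effect differed without M2rtTA for 1 of 48 members, IFI35, where 1.88% of all genes passed. With M2rtTA it differed for 2, IFIT5 and PARP14, where 4.08% passed. Between the arms of PK45H the effect differed for 1 of 45, PARP14, where 1.6% passed. These counts are near the shares of all genes, and IFI35 and IFIT5 were each lost under some omissions of a library. The fits that involve KP4 use the values that chose the list, so their counts are a description and no test: 2 members, ISG15 and IFIT1, between the arms of KP4, and 5 members without M2rtTA and 16 with it between KP4 and the mean of PANC1 and PK45H. Their values and the shares of all genes are given with the comparisons above.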

How the results depend on the processing

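With all libraries kept, counts of members past the threshold moved by over 1.5 times as follows. In a fit of only the groups compared, PANC1 had 0 without M2rtTA and 3 with it, and PANC1 minus PK45H had 0 in both arms. The latter had 1 with M2rtTA when no filter on low counts was used. DESeq2 gave 4 for the M2rtTA change in PK45H. The ranges when each library was left out in turn, whether or not they passed 1.5 times, were 7 to 10 in KP4 without M2rtTA and 23 to 26 with it, 0 to 2 and 4 to 6 in PANC1, and 2 to 3 and 3 to 4 in PK45H. They were 3 to 5 and 12 to 17 for KP4 minus the mean of PANC1 and PK45H, 0 to 2 and 1 to 3 for PANC1 minus PK45H, and 10 to 16 for untreated PANC1 minus PK45H. The causes were not tested beyond the fewer libraries of these fits. In KP4 with M2rtTA the values near 0 of IFI6, DDX60L and IFI44L changed sign under some alternatives. Without mCherry + M2rtTA replicate 1 IFI6 passed, at 3.42, and its change with M2rtTA went from -1.52 to 1.88. Without mCherry + M2rtTA replicate 3 USP18 went from -0.22 to 2.32 and HERC5 from 0.37 to 1.09, and both passed too. The alternatives for pathway genes were chosen after seeing the data. Replicate numbers did not pair the libraries: in 0 of 14 comparisons of 2 groups was every same-number correlation of deviations over 0.1 (range -0.2171 to 0.2427). With a replicate block the counts were 10 and 26 in KP4, 2 and 5 in PANC1 and 3 and 4 in PK45H without and with M2rtTA. BST2, CMPK2, PARP10 and RTP4 had too few counts to be tested in the fits of KP4, PANC1 or PK45H. Few counts also limit what can be seen for the interferon ligands.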
